A study of Mus musculus with 21 samples.

Results

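The p53 antibody peaks around 7 mouse genes of antiviral defence and immune signalling were examined: Mx1, Mx2, Bst2, Oas1a, Adar, Il6 and Tap1, out of 49943 RefSeq genes on chromosomes 1 to 19, X and Y. For each gene, the peaks taken were those labelled with it by the authors or lying within 50 kb of its RefSeq span. The genes were chosen from these same peak lists, so the values below describe the 7 loci and no test was applied to them. The peaks came from CUT&RUN, in which an antibody held on chromatin in permeabilised cells guides micrococcal nuclease to cut and release DNA close by.

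All samples were of ID8, an immortalised, untreated mouse ovarian surface epithelial line of C57BL/6 origin, grown asynchronously. The p53 antibody was used on 2 samples with the Trp53-/- genotype (KO) and 2 with Trp53+/+ (WT). The deposited tables hold 1 peak list per genotype, with 9784 KO peaks and 6811 WT peaks, and a WT-specific list of 2127 peaks that carries the authors' gene feature and repeat annotation. Whether the KO cells came from a single clone is not stated in the labels. With 1 list per genotype and positions only, there is no replicate spread, no peak height and no known read depth, so the absence of a peak means only that none was listed. At the knocked-out gene, Trp53 on chromosome 11, the nearest KO peak was 40.59 kb from the gene span and the nearest WT peak 77 bp from it. KO cells carry no intact Trp53, so the KO list shows where this antibody gave peaks without the gene.

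Interferons are cytokines released on viral infection, and they switch on genes whose products block viral replication. Cells can also make interferon when they sense their own double-stranded RNA, for instance from transcribed endogenous retroviruses, a state called viral mimicry. Long terminal repeats (LTRs) are the regulatory ends of such retroviruses, and many are left in the genome as solitary copies. p53 is a DNA-binding transcription factor whose response elements are, in human cells, also known inside some LTR families. RLTR1B and MMERGLN_LTR, named repeatedly below, are LTRs of mouse class I endogenous retroviruses, which the annotation groups as ERV1.

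A KO peak lay within 50 kb of 3 of the 7 genes, namely Mx1, Mx2 and Il6, against 30.9% of all RefSeq genes, and a WT peak within 50 kb of all 7, against 27.3%. All 7 also had a WT-specific peak in that window, against 11.9% of all genes, and 6 of the 7 had one on an LTR, against 5.25%. These counts follow from the choice of genes and are given only as a description. Tap1 was the gene without an LTR peak, so the LTR neighbourhood does not hold for every one of the 7. The genes drew on 2 distinct KO peaks, 13 WT peaks and 11 WT-specific peaks, of which 8 overlapped an LTR. No KO peak overlapped any of the 11. Such an overlap was rare in the whole WT-specific list, at 3.34% (71 of 2127), and among its LTR peaks, at 1.2% (12 of 996). Its absence here is therefore not a trait of these loci. The nearest KO peak was between 8.939 and 184.9 kb away from each of the 11. The 11 peaks were 194 to 987 bp long with a median of 453 bp, against a median of 454 bp over the WT-specific list.

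**Figure D1:**
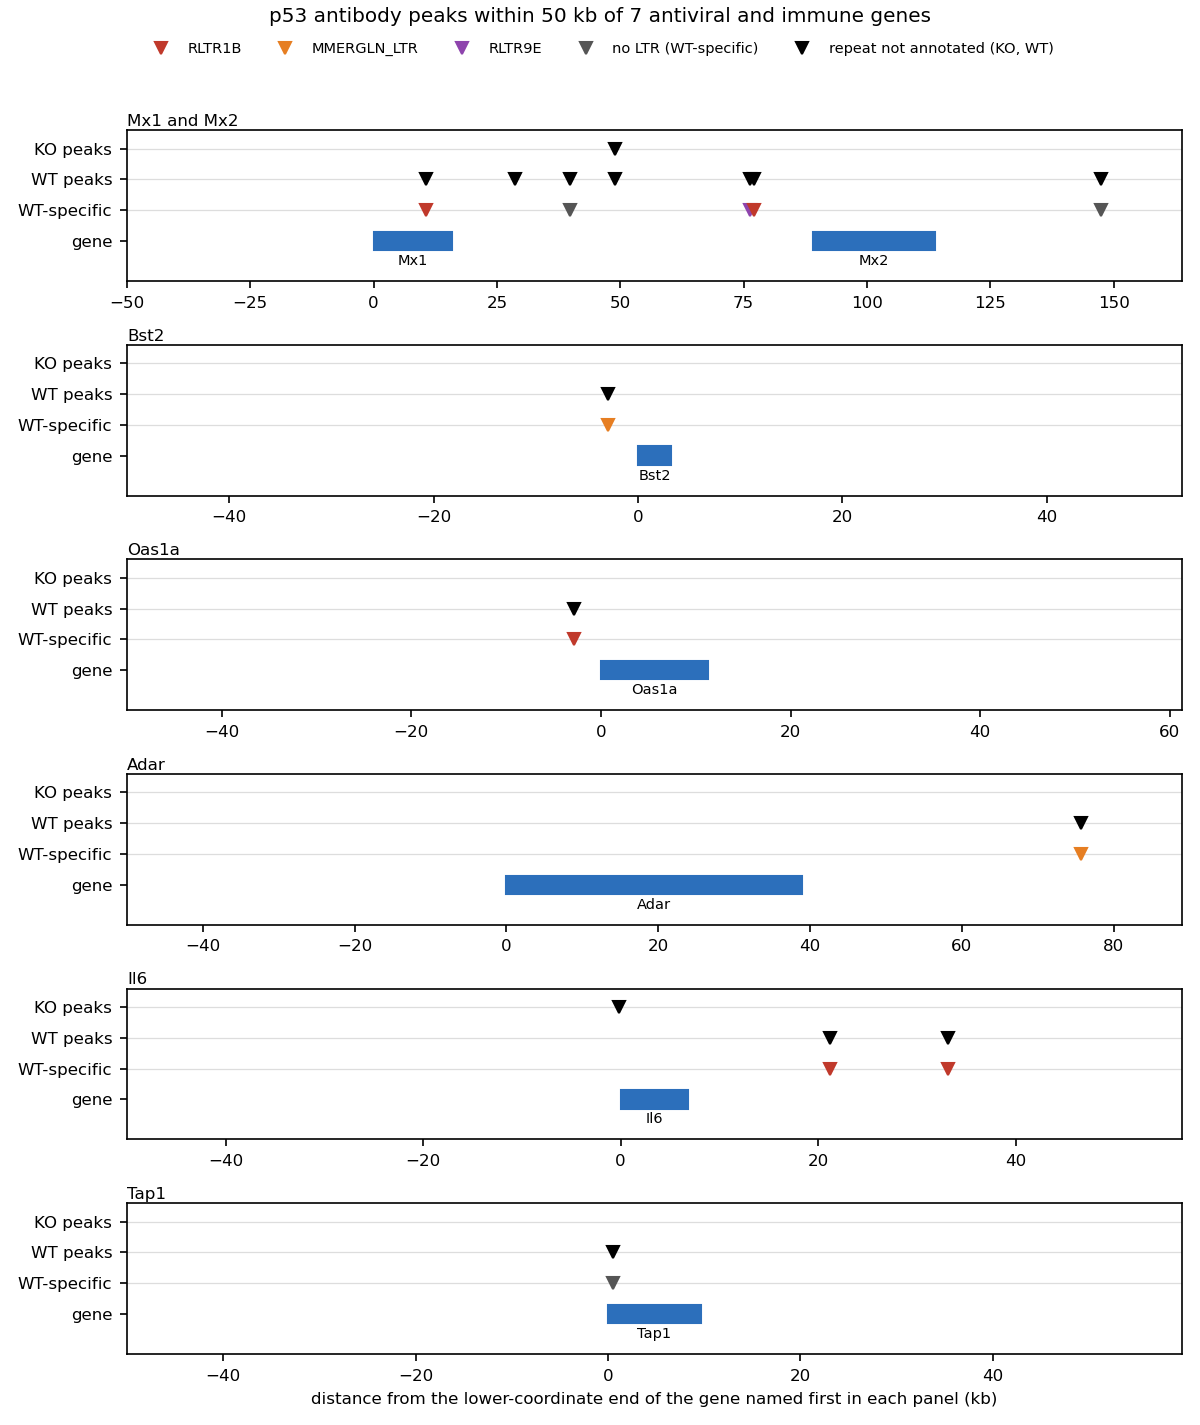
Positions of peaks within 50 kb of the genes, one panel per locus, with the KO list on top, then the WT and WT-specific lists and the gene span as a bar. The horizontal axis is the distance in kb from the lower-coordinate end of the gene named first. Triangles mark peak midpoints and do not show peak width. Bst2, Oas1a, Adar and Tap1 have no KO peak in the window, and the 1 KO peak at Il6 stands at the gene's start, apart from the WT peaks.

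Mx1 and Mx2 lie on chromosome 16 with Fam3b between them and encode dynamin-like GTPases that trap viral particles in infected cells. RefSeq lists both as transcribed pseudogenes in the C57BL/6J assembly, a strain background known for defective Mx genes. The 1 KO peak of this locus lay between them. It was 217 bp long (chr16:97495940-97496156), 33034 bp from Mx1 and 39925 bp from Mx2, and a WT peak of 282 bp covered it completely. A further WT peak of 259 bp, 12655 bp from Mx1, overlapped no KO peak and was still outside the WT-specific list. Within the window of Mx1, then, KO cells had 1 peak and WT cells 4, and within the window of Mx2 KO cells had 1 peak and WT cells 5.

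Mx1 (RefSeq gene 17857, chr16:97447035-97462906) was the only one of the 7 genes with an LTR peak inside its span. This WT-specific peak, chr16:97457510-97457962, was 453 bp long, was labelled as intronic in Mx1, and overlapped 292 bp of an RLTR1B element of 496 bp on the plus strand. Over all genes, 2.15% had a WT-specific peak overlapping their span, whether on an LTR or not, and 5.83% a WT peak. Of the 7, Mx1 and Tap1 had such a WT-specific peak. The share for LTR peaks alone is not given. A shorter WT-specific peak of 199 bp, 23897 bp from Mx1, lay in an intron of the neighbour Fam3b and wholly within an L1MA8 element, a LINE.

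Mx2 (RefSeq gene 17858, chr16:97536081-97560901) had no peak inside its span in any list. It had 4 WT-specific peaks within 50 kb, and 35 of the 49943 genes (0.0701%) had at least that many. The cutoff was the count of Mx2 itself, and the LTR peaks among the 4 stood side by side. The nearest, chr16:97523762-97524652, was 891 bp long, was 11429 bp from the gene, and covered 506 of the 509 bp of a plus-strand RLTR1B. It was longer than 89.3% of WT-specific peaks. The second, chr16:97523304-97523497, of 194 bp and 12584 bp away, ended shortly before the nearest began. It lay entirely in RLTR9E, an LTR of the ERVK family, and was the only WT-specific peak on an element of that name. For both peaks, Mx2 was the closest RefSeq gene. The other two peaks were labelled as introns of other genes: a 258 bp peak in Tmprss2, 33394 bp away and on no repeat, and the L1MA8 peak in Fam3b, 49080 bp away and shared with Mx1.

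Bst2 encodes tetherin, a membrane protein that holds budding enveloped viruses at the cell surface. The gene is short (RefSeq gene 69550, chr8:71534255-71537472, minus strand). KO cells had no peak within 50 kb, the nearest being 165294 bp away, and WT cells had 1. That peak, chr8:71530807-71531793, was in the WT-specific list and at 987 bp was the longest of the 11, longer than 92.4% of all WT-specific peaks. It was labelled intergenic, lay 2462 bp beyond the 3' end of Bst2, and covered the whole of a plus-strand MMERGLN_LTR of 436 bp, opposite in orientation to the gene. Bst2 was its closest RefSeq gene, with Ccdc194 next at 5082 bp, and 10 protein-coding genes lay within 50 kb of it. A nearer WT-specific LTR peak was found for 0.905% of RefSeq genes. Bst2 was chosen from these same peaks, so that share is a description only.

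The peak was thus 5679 bp from the Bst2 start site, and no list had a peak over the RefSeq promoter window, which runs from 250 bp before to 50 bp after the start. A WT-specific peak overlapped 0.496% of all such windows. The Bst2 window held the core of the interferon-stimulated response element, taken as GAAA, 2 bases of any kind, then GAAA, at 2 overlapping places. They are shown, with the same feature of Oas1a, because both genes carry it at the start while their p53 antibody peak is beyond the other end. Each line is 60 bases of the RefSeq GRCm38.p6 promoter on the minus strand, with the matched letters in capitals. They come from chr8:71537568-71537627 and chr5:120907511-120907570.
Bst2: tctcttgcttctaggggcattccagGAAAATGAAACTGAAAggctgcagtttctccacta
Oas1a: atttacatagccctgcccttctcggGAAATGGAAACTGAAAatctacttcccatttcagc
Of 32851 RefSeq promoter windows, 3.44% held this core on either strand. The pattern of a gamma-activated site, TTC and GAA with 3 bases between them, occurred once in each of these 2 windows and in 8.3% of all windows. In Bst2 that match overlapped the first match to the interferon core.

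Oas1a encodes an oligoadenylate synthetase, which on contact with double-stranded RNA makes the messenger that activates RNase L. It belongs to a cluster of related genes on chromosome 5 (RefSeq gene 246730, chr5:120896256-120907544, minus strand). As at Bst2, KO cells had no peak within 50 kb, with the nearest 170968 bp away, and WT cells had 1. The WT-specific peak, chr5:120893101-120893649, was 549 bp long and intergenic, and lay 2607 bp beyond the 3' end of the gene. It overlapped 338 bp of a minus-strand RLTR1B of 510 bp, in the same orientation as Oas1a. Oas1a was the closest RefSeq gene and Oas1g the next, at 5488 bp. A second WT-specific peak of 386 bp, on no repeat, stood just outside the window at 51173 bp.

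The same RLTR1B peak was close to other genes of the Oas1 group. Besides Oas1a, it was within 50 kb of Oas1g (5488 bp), Oas1h (19595 bp), Oas1d (21169 bp) and Oas1f (35115 bp). Oas1f was nearer to the 386 bp peak, at 2284 bp, and Oas1h, at 16339 bp, was as well. Of 12 genes of the oligoadenylate synthetase family and RNase L other than Oas1a, 2 had a KO peak within 50 kb (16.7%). A WT peak was there for 7 (58.3%) and a WT-specific peak for 7 (58.3%). Over all genes these shares were 30.9%, 27.3% and 11.9%. All 7 owed the WT-specific peak to these 2 peaks, so the genes are not separate observations.

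Adar encodes the adenosine deaminase that edits double-stranded RNA and so keeps a cell's own transcripts from setting off RNA sensors. Its long isoform is induced by interferon. Among the 6 genes with an LTR peak, Adar (RefSeq gene 56417, chr3:89714469-89753455, plus strand) was the farthest from it. The WT-specific peak, chr3:89789921-89790355, was 435 bp long and intergenic, stood 36466 bp beyond the 3' end, and overlapped 330 bp of a plus-strand MMERGLN_LTR of 434 bp. It was 59203 bp from the nearest of the 3 Adar start sites in the RefSeq promoter table. It was also closer to other genes: Ube2q1, a ubiquitin-conjugating enzyme gene, was 5924 bp away, and 4 RefSeq genes in all stood nearer to the peak than Adar. KO cells had no peak within 50 kb and their nearest, of 981 bp, was 66677 bp away on the 5' side. No promoter window of Adar held an exact match to the interferon core, and inexact matches were not searched for. The gamma-activated pattern occurred in 1 of the 3 windows, 22 to 30 bp after its start site.

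Il6 encodes a pro-inflammatory cytokine that also drives the acute phase response. Of the 7 genes it was the only one with a KO peak on its span (RefSeq gene 16193, chr5:30013114-30019975, plus strand). In KO cells a peak of 466 bp, chr5:30012673-30013138, covered the start of the gene, and the nearest WT peak was 20797 bp from it. The Il6 peak was longer than 67.7% of KO peaks. A KO peak overlapped the span of 7.26% of all genes. The one at Il6 took in 275 of the 300 bases of the RefSeq promoter window, and 3.1% of all promoter windows were overlapped by a KO peak and 2.04% by a WT peak. KO peaks that no WT peak overlapped, 59.0% of the KO list, touched 1.69% of windows. Repeats under KO peaks were not annotated, so whether this one lies on an LTR was not examined.

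The Il6 window is shown because Il6 is the only one of the 5 genes in the RefSeq promoter table with a peak over a window in any list. It is the plus strand of chr5:30012864-30013163 in RefSeq GRCm38.p6, with the part inside the KO peak in capitals.
Il6: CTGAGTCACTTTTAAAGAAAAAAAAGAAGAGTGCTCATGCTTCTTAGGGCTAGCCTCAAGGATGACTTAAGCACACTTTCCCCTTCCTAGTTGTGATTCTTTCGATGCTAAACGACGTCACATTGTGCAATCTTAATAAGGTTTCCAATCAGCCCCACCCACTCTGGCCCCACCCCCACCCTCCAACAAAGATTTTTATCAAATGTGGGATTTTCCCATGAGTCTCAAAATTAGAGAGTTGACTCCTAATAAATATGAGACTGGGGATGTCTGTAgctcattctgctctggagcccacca
The window held 1 match to the single decamer of the p53 response element, GGGCTAGCCT, at positions -204 to -195 with the start site counted as 0, inside the KO peak. Such a decamer was found in 8.36% of all promoter windows on either strand, and a full response element, a pair of decamers with up to 13 bases between them, in 0.0731%. The Il6 window held no full element and neither interferon pattern.

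In WT cells, Il6 had 2 peaks within 50 kb, both WT-specific, both intergenic by the deposited annotation and both on RLTR1B. The nearer, chr5:30033935-30034633, was 699 bp long, 13960 bp beyond the 3' end, and overlapped 447 bp of a plus-strand element of 508 bp. The farther, chr5:30046042-30046558, was 517 bp long, 26067 bp from the gene, and overlapped 408 bp of a minus-strand element of 495 bp. Having at least 2 WT-specific RLTR1B peaks within 50 kb was shared by 88 of the 49943 genes (0.176%). A further RLTR1B peak of 493 bp followed at 70937 bp, labelled as the promoter of RP24-418J2.5, and at least 3 such peaks within 100 kb were found at 32 genes (0.0641%). Both cutoffs were the counts of Il6 itself. Il6 was not the closest gene to either of its peaks inside the window. Tyms, which encodes thymidylate synthase, was 3913 bp from the nearer peak, and the farther one lay within the RefSeq span of Tyms.

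Tap1 encodes a subunit of the transporter that carries peptides into the endoplasmic reticulum for loading onto MHC class I. It stands in the MHC on chromosome 17 (RefSeq gene 21354, chr17:34187556-34197225, plus strand). KO cells had no peak within 50 kb, and their nearest, of 651 bp at 64852 bp, was overlapped by a WT peak. WT cells had 1 peak in the window, chr17:34187895-34188314, of 420 bp. It was in the WT-specific list, overlapped no annotated repeat and was labelled promoter of Tap1. By RefSeq it began 339 bp after the start site, inside the gene, and 290 bp past the end of the promoter window. Psmb9, an immunoproteasome subunit gene that stands head to head with Tap1 in the mouse, was 565 bp from the peak. The nearest WT-specific LTR peak was 554886 bp from Tap1, and 35.1% of RefSeq genes had a nearer one. The Tap1 window held none of the patterns searched for.

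Set side by side, the nearest KO peak was at 0 bp for Il6, 33034 bp for Mx1, 39925 bp for Mx2, 64852 bp for Tap1, 66677 bp for Adar, 165294 bp for Bst2 and 170968 bp for Oas1a. The nearest WT-specific peak was at 0 bp for Mx1 and Tap1, 2462 bp for Bst2, 2607 bp for Oas1a, 11429 bp for Mx2, 13960 bp for Il6 and 36466 bp for Adar. For each of the 7 genes the nearest WT peak was also the nearest WT-specific peak. Il6 was the 1 gene of the 7 nearer to a KO peak than to a WT peak. The genes were chosen from these peaks, so the nearness of WT peaks follows from the choice. Over all RefSeq genes the median distance was 129.1 kb to a KO peak, 149.0 kb to a WT peak, 403.3 kb to a WT-specific peak and 935.7 kb to a WT-specific LTR peak.

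**Figure D2:**
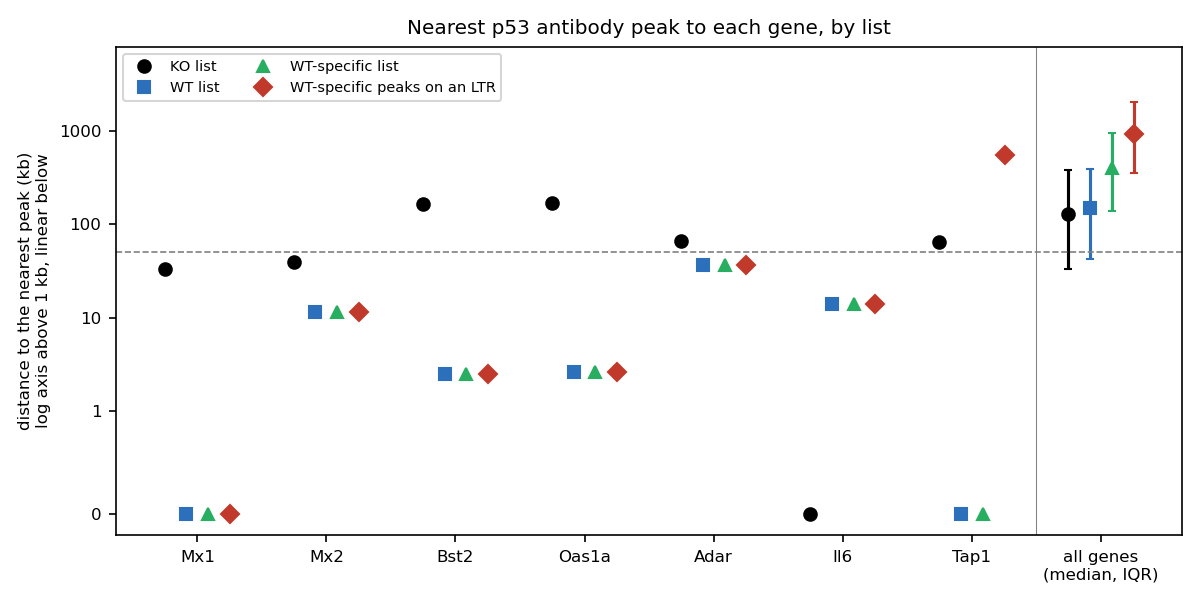
Distance in kb from each gene span to the nearest peak of the KO list, the WT list, the WT-specific list and the WT-specific peaks on an LTR, with 0 for a peak that overlaps the gene. The axis is logarithmic above 1 kb and linear below; the dashed line is 50 kb, and the last column gives the median with the interquartile range over all RefSeq genes. At the 7 genes the KO symbol lies above the others except at Il6, where it is at 0, and at Tap1, where the nearest LTR peak is 554886 bp away. The nearness of WT peaks follows from the choice of genes. Over all genes the KO median, 129.1 kb, is the lowest of the 4.

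The window of 50 kb divided these peaks as follows. Just inside it stood the Fam3b peak on L1MA8, 49080 bp from Mx2, and just outside it the 386 bp peak 51173 bp from Oas1a. The next WT-specific peak outside was the RLTR9E peak, 60398 bp from Mx1. The farthest KO peak inside was 39925 bp from Mx2, and the first outside was 64852 bp from Tap1.

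On their LTRs, most of these peaks had their midpoint near the 5' end, as other peaks on the same elements did. The peaks covered much of RLTR1B or MMERGLN_LTR, from 58.9% of the element at Mx1 to 100% at Bst2. Over all WT-specific peaks, the median was 66.9% of RLTR1B and 90.8% of MMERGLN_LTR. In turn, these 2 elements made up from 44.2% of the peak at Bst2 to 78.9% at the farther Il6 peak. Part of each such peak thus lay outside the element. A midpoint therefore does not place binding within the element. The midpoint of the peak, which is not a measured summit, was 60.5 bp from the 5' end of RLTR1B at Mx2, 63.5 bp at Oas1a, 65.5 bp at Mx1, and 97.5 and 149.5 bp at Il6. The 417 WT-specific peaks on RLTR1B, which form 419 pairs of a peak and an element, had a median of 101.5 bp and an interquartile range of 74.75 to 120.8 bp. The Mx1, Mx2 and Oas1a peaks were thus below that range, the second Il6 peak above it, and the first Il6 peak within it. On MMERGLN_LTR, the midpoint was at 112.5 bp for Adar and 203.5 bp for Bst2, against a median of 107 bp (71.88 to 131.1 bp) over 276 such pairs of 274 peaks. At Bst2, 94.6% of the pairs on that element had a midpoint closer to its 5' end or outside it on that side. The peaks near the 7 genes made up 5 of the 417 RLTR1B peaks (1.2%) and 2 of the 274 MMERGLN_LTR peaks (0.73%). A WT-specific RLTR1B peak was within 50 kb of 2.36% of all genes and an MMERGLN_LTR peak within 50 kb of 1.35%.

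**Figure D3:**
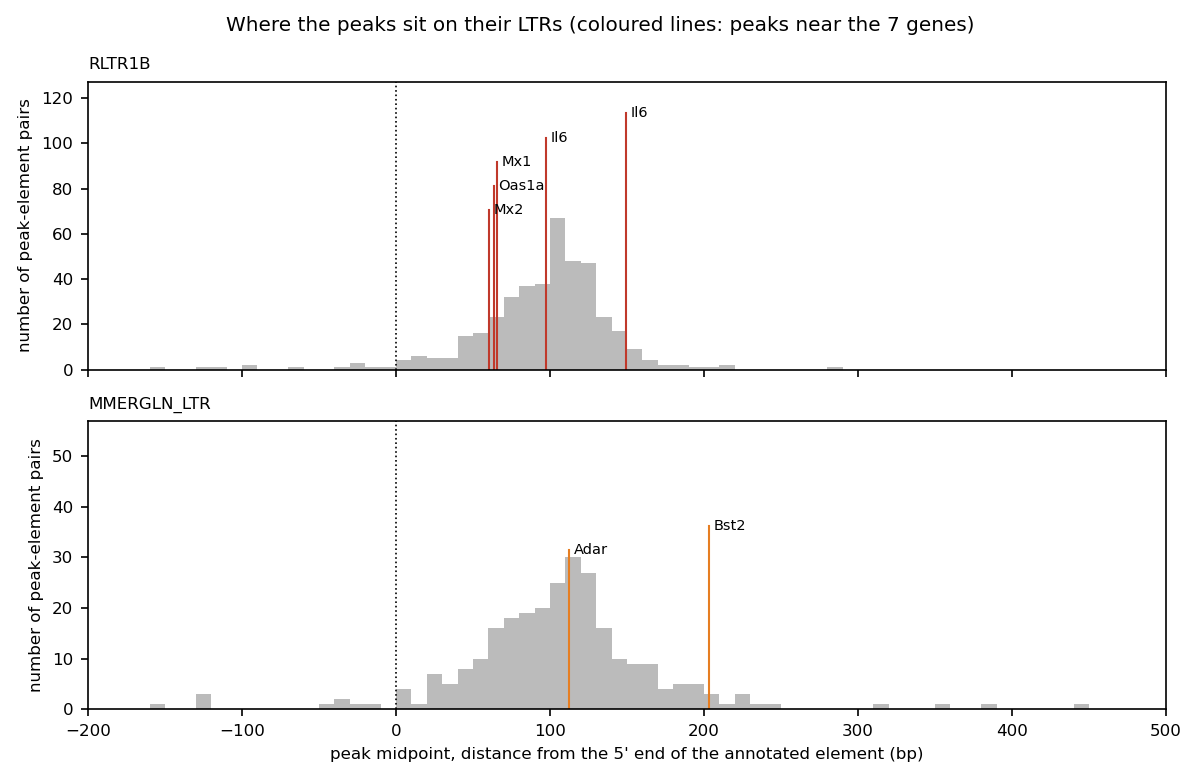
Histogram (grey) of the distance in bp between the midpoint of each WT-specific peak and the 5' end of its RLTR1B or MMERGLN_LTR element, with the dotted line at the 5' end, and coloured lines for the peaks near the named genes. The height of a coloured line has no meaning. Pairs outside the plotted range, 2 for RLTR1B and 6 for MMERGLN_LTR, are not drawn. Mx2, Oas1a and Mx1 stand together at 60.5 to 65.5 bp on RLTR1B, and Bst2 stands at 203.5 bp on MMERGLN_LTR.

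Other genes of the same pathways were taken from 6 lists, which hold 99 genes besides the 7. A KO peak was within 50 kb of 43 of the 99 (43.4%, against 30.9% of all genes) and a WT peak within 50 kb of 39 (39.4%, against 27.3%). A WT-specific peak was within 50 kb of 19 (19.2%, against 11.9%) and a WT-specific LTR peak within 50 kb of 6 (6.06%, against 5.25%). For LTR peaks the share of these 99 genes was near that of all genes. These genes are not separate observations. Of the 6, Oas1g, Oas1h, Oas1d and Oas1f share the RLTR1B peak near Oas1a. Of the 19, Psmb9, Psmb8 and Tap2 share the peak in Tap1. The median distance of the 99 genes to a WT-specific LTR peak was 801.9 kb, against 935.7 kb over all genes. Protein-coding genes alone had a KO peak within 50 kb in 36.4% of cases, a WT-specific peak in 14.5% and a WT-specific LTR peak in 5.7%.

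Among 19 other interferon-induced antiviral effectors, 7 had a KO peak within 50 kb and 7 a WT peak. In the WT-specific list, 4 of the 19 had a peak in that window and 2 had one on an LTR, in both cases RLTR1B. The shares over all genes were 30.9% for KO, 27.3% for WT, 11.9% for WT-specific and 5.25% for WT-specific LTR peaks. Xaf1, a gene for an interferon-induced pro-apoptotic factor, was 19554 bp from the nearest KO peak and 8987 bp from a WT-specific peak of 424 bp. Zc3hav1, which encodes the zinc-finger antiviral protein ZAP that binds viral RNA, was 232732 bp from the nearest KO peak and 10776 bp from a WT-specific peak of 674 bp. The 4 remaining list genes with an LTR peak were Oas1g, Oas1h, Oas1d and Oas1f.

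Over all genes, 30.9% had a KO peak within 50 kb, 27.3% a WT peak and 11.9% a WT-specific peak. Of 16 other genes of RNA and DNA sensing, 7 had a KO peak within 50 kb, 4 a WT peak and none a WT-specific peak. Of 15 genes of interferon signalling, 9 had a KO peak, 5 a WT peak and 1 a WT-specific peak. Of 15 other antigen presentation genes, 5 had a KO peak, 7 a WT peak and 4 a WT-specific peak. Of these 4, Psmb9, Psmb8 and Tap2 owed theirs to the peak in Tap1, at 565, 9881 and 16165 bp. Of 22 other cytokine and chemokine genes, 13 had a KO peak, 9 a WT peak and 3 a WT-specific peak. Lif, a cytokine of the Il6 family, had a KO peak of 845 bp inside its span, which a WT peak overlapped. It also had a separate WT-specific peak of 1160 bp there, labelled promoter and on no repeat. None of the genes in the sensing, interferon signalling, antigen presentation and cytokine lists other than Adar and Il6 had a WT-specific LTR peak within 50 kb.

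Over the 83 listed pathway genes with a RefSeq promoter window, 5 of the 7 included, 2 (2.41%) had a KO peak over a window and none had a WT or WT-specific peak there. Over all 27025 genes with a window, 3.42% had a KO peak over one, 2.21% a WT peak and 0.529% a WT-specific peak, so the counts among the listed genes were near those shares. The 2 were Il6 and Csf1, which encodes the macrophage growth factor CSF-1 and had a KO peak of 200 bp over a window. Neither KO peak was overlapped by a WT peak.

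Marker lists of other cell types were counted in the same way. Within 50 kb, the shares over all genes were 30.9% for KO, 27.3% for WT, 11.9% for WT-specific and 5.25% for WT-specific LTR peaks. Of 14 leukocyte marker genes, 1 had a KO peak within 50 kb, 3 a WT peak and 2 a WT-specific peak. Among them, 1 had a WT-specific LTR peak, an RLTR1B peak 18797 bp from Ms4a1. Of 12 fibroblast and endothelial marker genes, 4 had a KO peak within 50 kb, 2 a WT peak and 1 a WT-specific peak. That WT-specific peak was 4804 bp from Col1a1 and overlapped by a KO peak, and none of the 12 had one on an LTR. Peak lists give no expression, so the epithelial identity of the cells was not checked from them.

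**Figure D4:**
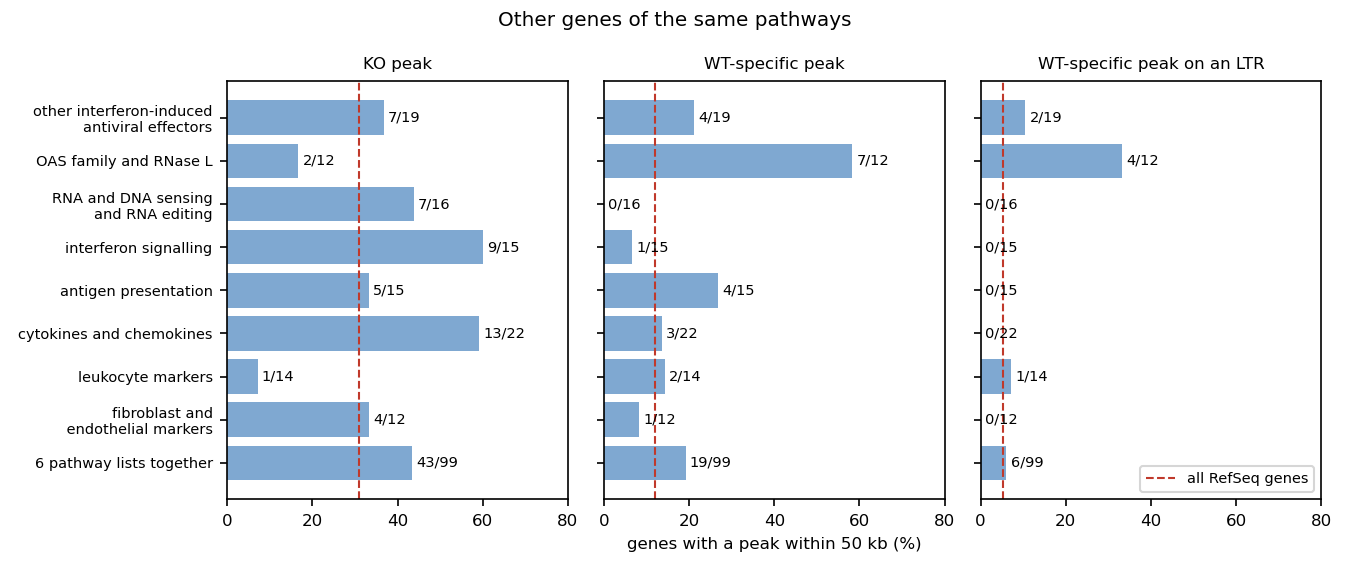
Share of genes in each list, without the 7 genes, that have a KO peak, a WT-specific peak or a WT-specific LTR peak within 50 kb, in percent, with counts beside the bars. The dashed line is the share over all 49943 RefSeq genes. Shares for the full WT list are not drawn. Neighbouring genes share peaks: the 7 of 12 in the oligoadenylate synthetase list rest on 2 peaks.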

How the data were processed

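CUT&RUN with a p53 antibody in 2 KO and 2 WT samples was used here as the peak positions that the authors deposited; the other 17 samples of the series were not analysed here. Per the file headers, each list gives a chromosome, start and end on mm10, with no score. Tools listed in the submitters' processing notes are fastp, Bowtie2, MACS2 and deepTools. Settings, the WT-specific rule, pooling before peak calling, and the source of the feature and repeat annotations are not stated in these sources. All 4 tables of WT-specific peaks hold identical intervals.

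Starts were read as 0-based and are printed 1-based. Distances were computed in Python 3.11.15 (numpy 2.4.6, pandas 2.3.3) between peak edges and RefSeq GRCm38.p6 gene spans, the assembly mm10 represents, and overlap meant at least 1 bp. An LTR peak is one whose Repeats entry has the class LTR. Strand and start sites came from the RefSeq promoter table, which held 5 of the 7 genes and not Mx1 or Mx2. Motifs were searched on both strands.

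The genes, the window, the 6 pathway lists and the 2 marker lists were chosen with earlier results of these data known. All 132 list genes matched RefSeq, Rigi through its older symbol. Besides the 7 genes, the text names each gene the deposited annotation gives at their nearest WT-specific peaks, each list gene with a WT-specific peak within 5 kb, and up to 15 list genes with a WT-specific LTR peak within 50 kb. Genes next to a peak, other genes that share the Tap1 peak and Csf1 were named after their values were seen. No test was run, since the members were chosen from these peaks and each genotype has 1 list. Peak positions are presence calls, so read depth is unknown.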

Additional observations from a re-analysis of the deposited data

How the results depend on the processing

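Counts of the 7 genes depended on the window, and each is given with the share of all genes counted in the same way. With 5 kb, 1 gene (Il6) had a KO peak (11.3% of all genes), 4 had a WT peak (9.04%), 4 a WT-specific peak (3.32%) and 3 a WT-specific LTR peak (1.19%). The counts were the same with 10 kb, where the shares were 14.1%, 11.5%, 4.31% and 1.68%. The KO peaks lost were those of Mx1 and Mx2, and the WT-specific peaks lost were those of Mx2, Adar and Il6. With 100 kb, 5 had a KO peak (44.0%), and the other counts were 7, 7 and 6 as reported (40.5%, 19.7% and 8.98%). With the longer 50% of each list, 1 had a KO peak (17.7%), 7 a WT peak (16.4%) and 4 a WT-specific peak (6.32%), namely Mx2, Bst2, Oas1a and Il6, each on an LTR (3.28%). Start sites are known for 5 of the 7 and for 27025 genes in all. Measured from them, 1 had a KO peak (30.7%), 4 a WT peak (26.7%), 4 a WT-specific peak (11.1%) and 3 a WT-specific LTR peak (4.36%), and Adar was outside the window. Requiring the LTR to cover 50% of the peak left 5 genes with an LTR peak (4.25%), without Bst2. No paired analysis was possible because each genotype has 1 peak list with no values per replicate, and for the same reason no replicate could be left out.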
